A study of Mus musculus with 7 samples.

Results

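The genes described here are the NF-kB subunits Relb, Rela, Rel, Nfkb1 and Nfkb2, the inhibitors Nfkbia, Nfkbie and Bcl3, the feedback enzyme Tnfaip3 and the kinase Map3k14, followed in thymus with and without RelB. They were chosen by name, and every array probe annotated with one of these symbols was taken. Of the 10 genes, 9 were represented, by 10 probes out of 25695 in the table, and Nfkb1 was not analysed here. Whole thymus was taken from mice aged 8 weeks, with 1 Illumina array per mouse. The 3 RelB-/- mice carried the disruption on both alleles, and the 4 RelB+/- mice, titled wild type in the sample names, carried it on one. Every mouse in the comparison therefore had at least one disrupted allele, and a thymus with both alleles intact was not analysed here. The sources used here give neither strain nor sex, nor the part of Relb that was disrupted.

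NF-kB transcription factors are dimers of subunits that share a DNA-binding Rel homology region. In the classical branch, dimers such as Rela with the product of Nfkb1 are held in the cytoplasm by inhibitors such as the product of Nfkbia until a kinase complex marks the inhibitor for destruction. In the alternative branch, the kinase encoded by Map3k14 triggers processing of the Nfkb2 precursor, and the product pairs with RelB. In thymus the alternative branch is known for its role in forming the medullary epithelium and mature dendritic cells. Several of the genes are themselves known NF-kB targets, so that the pathway feeds back on its own parts.

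The start regions of these genes carry matches to the kB consensus, the classical binding motif of NF-kB dimers, and they are shown because the comparison asks whether genes of this kind change when RelB is lost. Each promoter window ran from 250 bases before to 50 bases after a gene start in RefSeq (GRCm38.p6), and both strands were searched, with overlapping matches counted separately. Windows were found for 8 of the genes, and 6 of these (Rel, Nfkb2, Nfkbia, Nfkbie, Bcl3 and Tnfaip3) had at least one match, against 9.55% of 26994 genes in the table. A match is a description of the letters and not evidence of binding. The windows of Rela and Map3k14 held no match, which says only that these letters are not in them. One match per gene is printed below 5′ to 3′ along the gene, with 10 flanking bases on each side in lower case and the match in capitals.
Rel: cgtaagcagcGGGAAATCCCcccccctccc
Nfkb2: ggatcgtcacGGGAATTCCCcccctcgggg
Nfkbia: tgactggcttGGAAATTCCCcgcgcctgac
Nfkbie: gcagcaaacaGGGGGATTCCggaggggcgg
Bcl3: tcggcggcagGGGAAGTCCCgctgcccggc
Tnfaip3: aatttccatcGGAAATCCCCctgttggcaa

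These stretches lie at chr11:23771042-23771071 (minus strand) for Rel, chr19:46304688-46304717 (plus strand) for Nfkb2 and chr12:55492657-55492686 (minus strand) for Nfkbia. Those of Nfkbie, Bcl3 and Tnfaip3 lie at chr17:45555584-45555613 (plus strand), chr7:19822734-19822763 (minus strand) and chr10:19015403-19015432 (minus strand). The capitals begin 92 bases before the annotated start in Rel, 39 before it in Nfkb2, 29 before it in Nfkbia, 106 before it in Nfkbie and 12 before it in Tnfaip3. In Bcl3 they begin at base 3 after the start.

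The arrays were alike in brightness, with median raw intensities of 103.5 to 142.3 and between 45.9% and 49.4% of probes above background. Of 7 measured thymocyte markers 0 were called (1 had an unadjusted p under 0.05), with summed intensities that did not overlap, of 42435 to 44557 in RelB-/- and 36982 to 40169 in RelB+/- thymus. Among these markers Cd8b1 was by far the brightest, so the sums mainly follow this 1 probe. Cd8b1 alone had groups that did not overlap (0.17, limma adjusted p = 0.606), and the share of all probes in that direction was not counted. Dntt had a negative difference (-0.16). Of 10 granulocyte markers 3 were called higher in RelB-/- thymus and all 10 had positive differences, with summed intensities of 5823 to 23400 in RelB-/- and 721 to 8136 in RelB+/- thymus, and their part in the values below was not tested. The 2 heart muscle transcripts summed to 15238 on RelB-/- 3 and 5560 on RelB+/- 2, against 161 to 244 on the other arrays. The 4 measured adipocyte markers summed to 331, 535 and 2676 on RelB-/- 1, 2 and 3, against 1147 to 2582 in RelB+/- thymus. All 4 had negative differences and 0 were called, and the part of fat in the values below was not tested. The Y-linked gene Eif2s3y read 4.34 on RelB-/- 2, where it was not detected, and 6.60 to 7.63 on the other arrays. Values below are normalized log2 intensities, a probe counts as detected at a detection p under 0.05, and differences are RelB-/- minus RelB+/-. Adjusted p-values come from limma, with Benjamini-Hochberg adjustment over all 12465 probes detected on at least 3 arrays.

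Relb, the targeted gene, fell to background in RelB-/- thymus. Its probe read 4.68, 4.39 and 4.31 in the 3 RelB-/- thymi, all below the detection limit, against 7.004, 7.12, 7.10 and 7.15 in the 4 RelB+/- thymi, all detected. The groups were far apart, and the RelB+/- thymi lay within a narrow range of one another. With the RelB-/- arrays at the lowest signal detected on each, Relb was at least 4.48-fold lower (limma adjusted p = 0.000235). The place of the probe relative to the disruption is not known, and the genotype labels and the probe point the same way on all 7 arrays. In whole tissue, fewer cells of a type and less RNA per cell cannot be told apart. Markers of several stromal and immune cell types were read beside Relb. All 6 measured medullary epithelium markers had negative differences, 4 of them called, with the brightest probes of Fezf2 and Aire detected on 0 of 3 RelB-/- arrays, and their summed intensity was 1231 to 1916 in RelB-/- and 6133 to 7320 in RelB+/- thymus. The 5 measured dendritic cell markers summed to 223 to 242 in RelB-/- and 426 to 706 in RelB+/- thymus, a gap carried by Fscn1 (-1.83, called lower) and Ccl17 (-1.37, not called). The other dendritic cell markers, Ccr7 (0.08), Zbtb46 (0.05) and Xcr1 (0.02), had positive differences, and the median of the list was 0.02. Cortical epithelium sums were 1352 to 2303 in RelB-/- and 2493 to 4477 in RelB+/- thymus, with 0 of 4 markers called. That gap was carried by Krt8 (-0.94), the 1 marker with an unadjusted p under 0.05. The groups overlapped for Prss16 (-0.25), Ly75 (-0.21) and Ctsl (0.28). B cell sums overlapped at 770 to 965 in RelB-/- and 778 to 1330 in RelB+/- thymus. The part of these cells in the Relb difference was not tested.

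**Figure D1:**
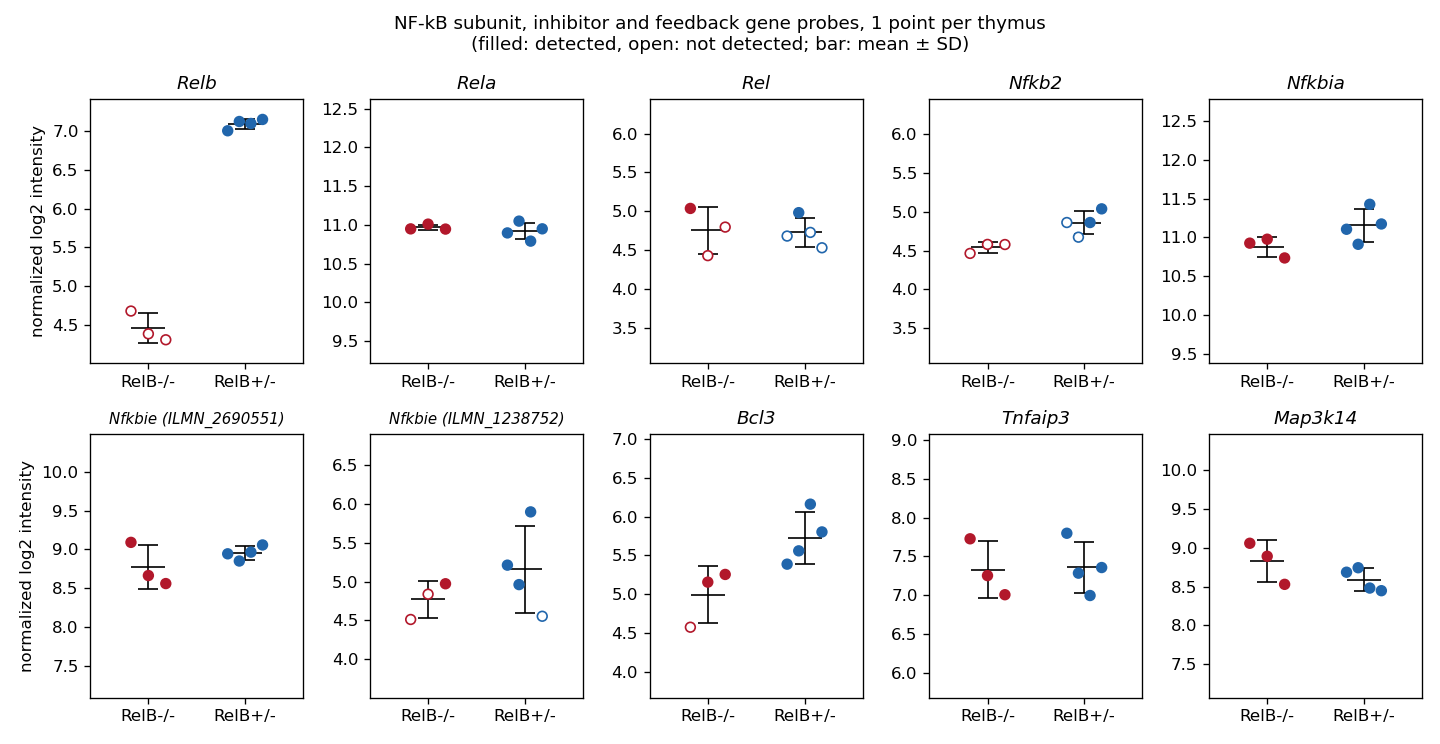
Normalized log2 intensity (vertical axis, spanning the same number of log2 units in each panel) of the 10 probes in RelB-/- (red, left) and RelB+/- (blue, right) thymus, with 1 point per mouse, filled where detected and open where not, and bars for the mean ± SD (n = 3 and n = 4). Relb reads 4.31 to 4.68 in RelB-/- and 7.004 to 7.15 in RelB+/- thymus. Besides Relb, Bcl3 and Nfkb2 have groups that do not overlap, and the other panels overlap.

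Apart from Relb, 7 probes of 6 of the genes passed the detection filter, and 0 of these 7 were called by limma at an adjusted p under 0.05, where 0.554% of all probes tested were called. At an unadjusted p under 0.05 it was 1 of 7, the probe of Bcl3, against 11.9% of all probes. Negative differences were found for 5 of the 7 probes, 2 of them probes of Nfkbie, and positive ones for 2. By the brightest probe of each gene, 4 were negative and 2 positive, against 4070 negative and 4774 positive over all genes. All probes but that of Bcl3 had a difference smaller than 0.5 in size. The genes are taken below by role, each with the interval that the arrays allow, since a p above the threshold does not show that a level is the same.

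Among the other subunits, Rela was measured most closely. Rela encodes the main activating subunit of the classical branch. It read 10.95, 11.01 and 10.95 in RelB-/- thymus, against 10.90, 11.05, 10.79 and 10.95 in RelB+/- thymus. The RelB-/- values lay inside the RelB+/- range. The difference was 0.05 (SE 0.13, adjusted p = 0.914), and its 95% interval of -0.25 to 0.35 corresponds to 0.838-fold to 1.27-fold. Leaving out single arrays gave 0.0039 (without RelB+/- 3) to 0.089 (without RelB+/- 2). Its spread within a genotype, a pooled SD of 0.086, was below the median of 0.26 over all probes tested.

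Rel and Nfkb2 sat at the detection limit. The probe of Rel, a subunit important in lymphocytes, passed the detection limit on RelB-/- 1 and on RelB+/- 2 only. Rel read 5.04, 4.43 and 4.796 in RelB-/- thymus and 4.68, 4.98, 4.73 and 4.53 in RelB+/- thymus, and the groups overlapped. Neither gene passed the filter, so both were tested only with the filter removed, where Rel had a difference of 0.02 (SE 0.17, adjusted p = 0.981).

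Nfkb2, which encodes the precursor of RelB's usual partner, read below every RelB+/- array on each RelB-/- array, near the floor of the assay. Its probe read 4.46, 4.58 and 4.58 in RelB-/- thymus, detected on none of them, against 4.86, 4.67, 4.86 and 5.04 in RelB+/- thymus, detected on 2 of 4. The groups did not overlap, as for 4.53% of all 25695 probes in this direction. Without the filter the difference was -0.32 (SE 0.11, unadjusted p = 0.022, adjusted p = 0.456 by limma). No bound on the fold can be given, because the RelB+/- mean of 4.86 ± 0.15 (SD, n = 4) was below the lowest signal counted as detected on the RelB-/- arrays. On the authors' processed scale, which compresses dim probes, the Nfkb2 means were 7.60 in RelB-/- and 7.65 in RelB+/- thymus.

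No inhibitor probe was called. Nfkbia encodes the inhibitor that binds Rela-containing dimers and is itself a rapid NF-kB target. It read 10.93, 10.98 and 10.74 in RelB-/- thymus, against 11.11, 10.91, 11.43 and 11.17 in RelB+/- thymus. Only RelB+/- 2 lay within the RelB-/- range, and RelB+/- 3 was the highest array. The difference was -0.27 (SE 0.16, adjusted p = 0.529), with an interval from -0.65 to 0.10, so that a level of 0.639-fold to 1.07-fold is compatible with these arrays.

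Nfkbie, which encodes a related inhibitor, was read by 2 probes. The brighter Nfkbie probe read 9.09, 8.66 and 8.56 in RelB-/- thymus and 8.94, 8.85, 8.97 and 9.06 in RelB+/- thymus. RelB-/- 1 was the highest of the 7 arrays and the other RelB-/- arrays were the lowest, so the genotypes overlapped. The difference was -0.18 (SE 0.17, adjusted p = 0.670, interval -0.56 to 0.19), and it was -0.34 without RelB-/- 1 and -0.077 without RelB-/- 3. The dimmer Nfkbie probe, above background in 1 RelB-/- and 3 RelB+/- thymi, read 4.51, 4.84 and 4.97 in RelB-/- thymus against 5.21, 4.96, 5.90 and 4.55 in RelB+/- thymus. Its difference had the same sign and a wider interval (-0.38, SE 0.30, adjusted p = 0.627, interval -1.06 to 0.29), and it was -0.13 without RelB+/- 3.

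Bcl3 had the lowest p after Relb. It encodes an atypical member of the inhibitor family that acts in the nucleus with homodimers of the Nfkb1 and Nfkb2 products. Bcl3 read 4.57, 5.15 and 5.25 in RelB-/- thymus, detected on 2 of 3, against 5.39, 5.56, 6.16 and 5.80 in RelB+/- thymus, detected on 4 of 4. Every RelB-/- array was below every RelB+/- array, a pattern that 6.15% of the probes tested showed in this direction. The difference of -0.73 (SE 0.24, interval -1.27 to -0.19) had an unadjusted p of 0.014 and did not pass the adjustment (adjusted p = 0.322 by limma). It kept its sign in all 21 alternatives in which Bcl3 was tested and was called in 0 of them, with adjusted p from 0.154 to 0.912. Its size was -0.40 with a larger background offset of 50, -0.24 without background correction and -0.14 with the authors' processed values.

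The feedback enzyme and the kinase had overlapping groups. Tnfaip3 encodes a ubiquitin-editing enzyme that ends NF-kB signalling. It read 7.73, 7.25 and 7.01 in RelB-/- thymus and 7.80, 7.29, 6.997 and 7.36 in RelB+/- thymus. The 2 sets of values covered almost the same range, and the difference was -0.03 (SE 0.24, adjusted p = 0.972, interval -0.57 to 0.51). That interval spans 0.674-fold to 1.42-fold, a wider range than for Rela. The sign of the Tnfaip3 difference turned when RelB-/- 3 (0.13), RelB+/- 1 (0.12) or RelB-/- 2 (0.01) was left out.

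Map3k14 encodes the kinase that starts the alternative branch and lies upstream of RelB. It read 9.06, 8.89 and 8.53 in RelB-/- thymus, against 8.69, 8.74, 8.48 and 8.45 in RelB+/- thymus. The highest arrays were RelB-/- 1 and RelB-/- 2, while RelB-/- 3 lay within the RelB+/- range. The difference was 0.24 (SE 0.17, adjusted p = 0.603, interval -0.15 to 0.63). It was 0.12 without RelB-/- 1 and 0.38 without RelB-/- 3. Without RelB-/- 3 and RelB+/- 2, the arrays with heart muscle transcripts (an alternative chosen after seeing the data), it was 0.44 (adjusted p = 0.423).

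**Figure D2:**
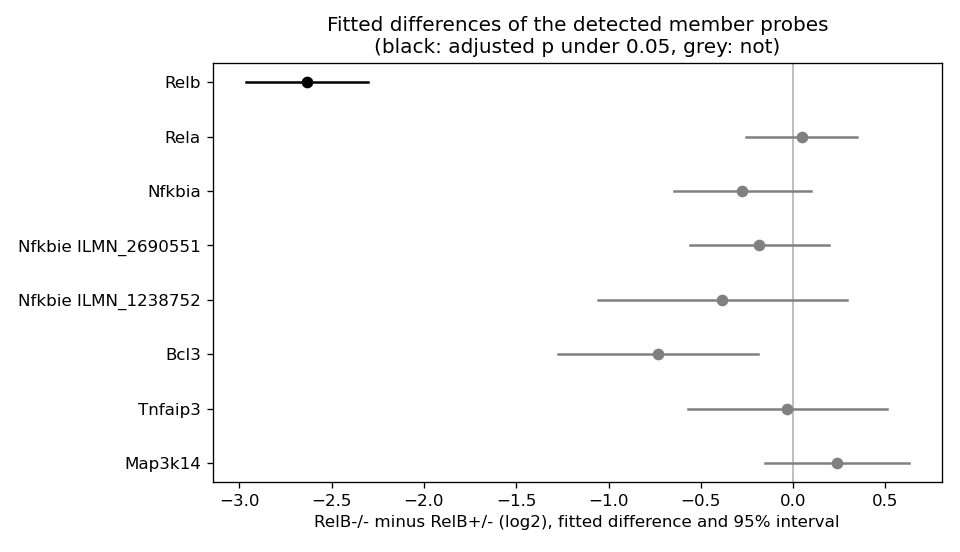
Fitted RelB-/- minus RelB+/- difference (horizontal axis, log2) with its 95% interval for the 8 probes that passed the detection filter, black where the limma adjusted p was under 0.05. Only Relb (-2.64) is black. Its RelB-/- values are at background, so its fitted size is no measure of the true fold, and the grey intervals include 0 except that of Bcl3 (-1.27 to -0.19).

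The rest of the pathway was read through 5 lists, by the brightest detected probe of each gene. Over all 8844 genes with a symbol the median difference was 0.03, with 0.633% called lower and 0.0905% called higher, and 12.6% had an unadjusted p under 0.05. The 6 measured genes described above other than Relb had a median of -0.11.

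Upstream components were called in neither direction. Of 17 measured kinases, adaptors and ligases 0 were called by limma, 5 had an unadjusted p under 0.05 (against 12.6% of all genes), and the median was 0.12. Of these 5, Traf6, Tab3, Tab2 and Tbk1 had positive differences and Traf1 a negative one. Traf1, an adaptor and classical NF-kB target, read 7.05, 7.60 and 7.33 in RelB-/- thymus and 7.81, 7.72, 8.32 and 8.04 in RelB+/- thymus (-0.64, SE 0.20, adjusted p = 0.310). Its groups did not overlap, as for 6.15% of the probes tested in this direction. In the other direction, Traf6, Tab3, Tbk1 and Prkcq of this list had groups without overlap. The share of all probes in that direction was not counted, so whether this is more than usual cannot be said. Traf6, the adaptor of interleukin and Toll-like receptors, ran the other way at 10.4 ± 0.27 (SD, n = 3) in RelB-/- and 9.82 ± 0.33 (SD, n = 4) in RelB+/- thymus (0.62, SE 0.22, limma adjusted p = 0.337). Of the other Traf6 probes, one had the same sign (0.64, SE 0.33) and one the opposite sign (-0.14, SE 0.16).

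Of 8 receptors upstream of NF-kB 0 were called and 1 had an unadjusted p under 0.05, with a median of 0.19. That was Myd88, the shared Toll-like receptor adaptor in this list, at 0.33 (SE 0.14, adjusted p = 0.397). Tnfrsf11a, which encodes the receptor for RANK ligand and feeds the alternative branch in medullary epithelium, was detected in all 4 RelB+/- thymi but in just 1 of the 3 RelB-/- thymi, with a difference of -0.47 (SE 0.30, adjusted p = 0.559). The groups overlapped near the detection limit, with RelB-/- 3 (5.54) above RelB+/- 3 (5.01) and RelB+/- 4 (5.14). With the authors' processed values the Tnfrsf11a difference was -0.09.

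Other inhibitors and deubiquitinases numbered 15, of which 0 were called by limma and 0 had an unadjusted p under 0.05, with a median of 0.03. The 2 with the smallest p were Commd1, which promotes removal of Rela from chromatin (-0.38, SE 0.17, adjusted p = 0.420), and Cyld, a deubiquitinase that dampens the classical branch (0.43, SE 0.20, adjusted p = 0.438).

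Downstream, 1 gene passed the test in each list of described targets. Of 16 measured targets of the classical branch 1 was lower and 0 higher, 3 had an unadjusted p under 0.05 with a negative difference and 1 with a positive one, and the median was -0.15. The lower gene, Junb, encodes an AP-1 subunit and is induced by many signals besides NF-kB. It read 8.82, 8.68 and 8.34 in RelB-/- thymus and 9.60, 9.57, 9.60 and 9.87 in RelB+/- thymus (-1.04, SE 0.16, adjusted p = 0.039). Its call was lost when any single array was left out, with differences from -1.14 to -0.91 and adjusted p from 0.070 to 0.110. It was also lost without both arrays with heart muscle transcripts (-0.94, adjusted p = 0.202), without normalization between arrays (-1.10, adjusted p = 0.239) and among probes detected on all 7 arrays (adjusted p = 0.070).

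Gadd45b, a stress-response gene chosen after its values were seen, read 5.92, 6.11 and 5.77 in RelB-/- thymus and 7.44, 7.19, 6.54 and 6.91 in RelB+/- thymus. Its groups did not overlap, as for 6.15% of the probes tested in this direction. The difference of -1.08 (SE 0.22) had an adjusted p of 0.113, which missed the threshold. It was -0.53 without background correction and -0.35 with the authors' processed values.

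Of 7 measured targets of the alternative branch 1 was lower and 0 higher, 3 had an unadjusted p under 0.05, all with negative differences, and the median was -0.09. The lower gene was Ccl21a, a chemokine made by medullary epithelium that draws CCR7-bearing thymocytes. It read 8.29, 9.76 and 8.97 in RelB-/- thymus and 12.3, 12.3, 11.9 and 12.1 in RelB+/- thymus (-3.16, SE 0.31, adjusted p = 0.0033). The gene is also a medullary epithelium marker whose near-identical copies the probe may read, and its call was lost without both arrays with heart muscle transcripts (-3.06, adjusted p = 0.073). Ccl17, a chemokine of dendritic cells chosen after its values were seen, read 4.58, 4.45 and 4.78 in RelB-/- thymus, detected on none, and 6.04, 6.53, 5.48 and 5.83 in RelB+/- thymus, detected on all 4. Its groups did not overlap, again a pattern of 6.15% of the probes tested in this direction, and it missed the threshold (-1.37, SE 0.24, adjusted p = 0.060). Ccl17 was called in 6 of 21 alternatives, one of which was the looser threshold, with adjusted p from 0.024 to 0.248 over all 21. Ccl19, another CCR7 ligand chosen after its values were seen, read 5.17, 5.60 and 6.82 in RelB-/- thymus and 7.22, 6.61, 7.54 and 7.06 in RelB+/- thymus, with RelB-/- 3 above RelB+/- 2 (-1.24, SE 0.38, adjusted p = 0.299).

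**Figure D3:**
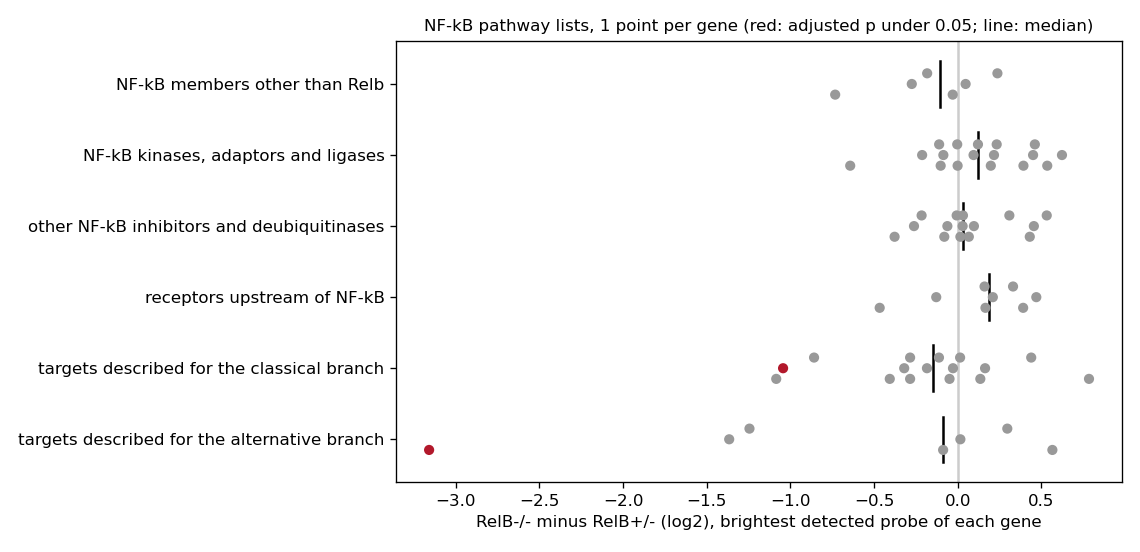
RelB-/- minus RelB+/- difference (horizontal axis, log2) of the brightest detected probe of each gene, with 1 point per gene, red where the limma adjusted p was under 0.05, and a black line at the median of each list. Relb is left out, and the red points are Junb (-1.04) and Ccl21a (-3.16).

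Bcl3 shares a chromosome region with the disrupted gene. It is the 11th protein-coding gene from Relb on chromosome 7 in the RefSeq gene order, so the genes between them and those on the other side of Relb were read as well. Genes beyond Bcl3 were not read. Among the 10 protein-coding genes on either side of Relb, 14 were measured and 0 were called by limma, against 0.633% lower and 0.0905% higher of all genes. An unadjusted p under 0.05 was found for 1 of the 14, against 12.6% of all genes. Their median difference was -0.11, with a range from -0.84 to 0.30. The lowest was Apoe, which encodes a lipid-transport protein abundant in macrophages and was chosen after its values were seen. Apoe read 9.68, 9.88 and 10.26 in RelB-/- thymus and 10.55, 10.55, 11.05 and 10.97 in RelB+/- thymus (-0.84, SE 0.20, adjusted p = 0.176). The Apoe groups did not overlap, as for 6.15% of the probes tested in this direction. Summed macrophage markers were 2946 to 3787 in RelB-/- and 3460 to 5778 in RelB+/- thymus, and their part in the Apoe difference was not tested. Neither of the immediate neighbours passed the test, with a difference of 0.16 for Clasrp on one side (SE 0.20, adjusted p = 0.775) and of -0.44 for Clptm1 on the other (SE 0.28, adjusted p = 0.557).

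**Figure D4:**
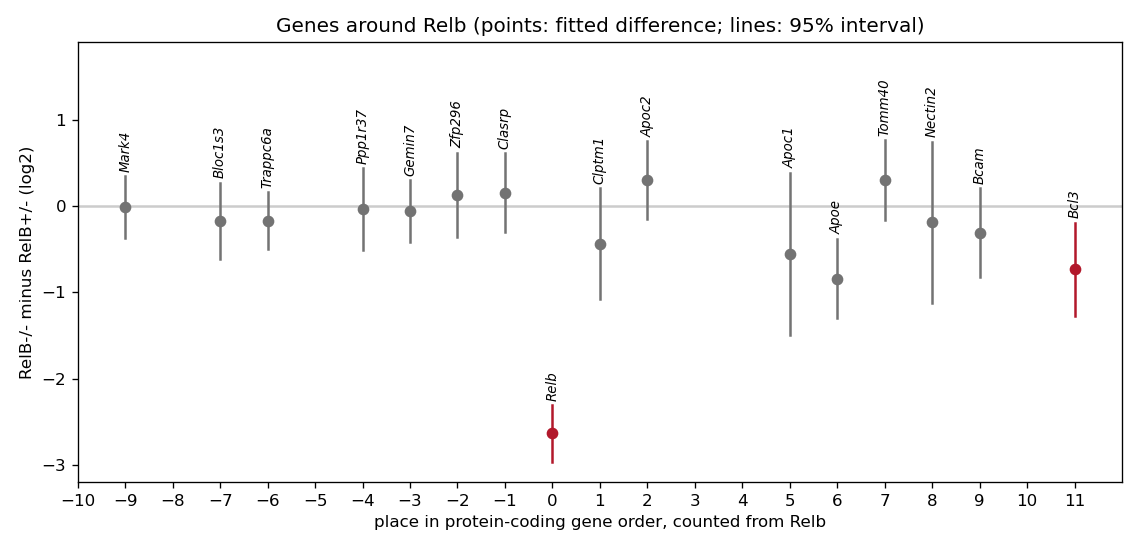
RelB-/- minus RelB+/- difference (vertical axis, log2) with its 95% interval for the measured genes around Relb, placed by protein-coding gene order (horizontal axis, counted from Relb). Relb and Bcl3 are drawn in red to mark them. Only the intervals of Relb, Apoe (-1.30 to -0.38) and Bcl3 (-1.27 to -0.19) leave out 0.

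The 5 genes whose levels followed the Relb probe most closely over the 7 arrays, by Pearson correlation with 1 probe a gene, were Gp2, a zymogen granule glycoprotein (r = 0.999), Tff1, a trefoil peptide of mucosal epithelium (r = 0.995), Fezf2, a transcription factor of medullary epithelium (r = 0.992), Vmo1 (r = 0.991) and Gipc2 (r = 0.989). Each was detected in all 4 RelB+/- thymi and in 0 of the 3 RelB-/- thymi, so these correlations mainly restate the genotype and carry no test. Gp2, for example, read 4.61, 4.43 and 4.24 in RelB-/- thymus and 6.99, 7.27, 7.24 and 7.21 in RelB+/- thymus. Gp2 was at least 4.75-fold lower, Vmo1 at least 3.98-fold, Fezf2 at least 3.87-fold, Tff1 at least 2.38-fold and Gipc2 at least 2.09-fold, as a description of genes picked for this pattern. The NF-kB genes described above were not among the 5.

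**Figure D5:**
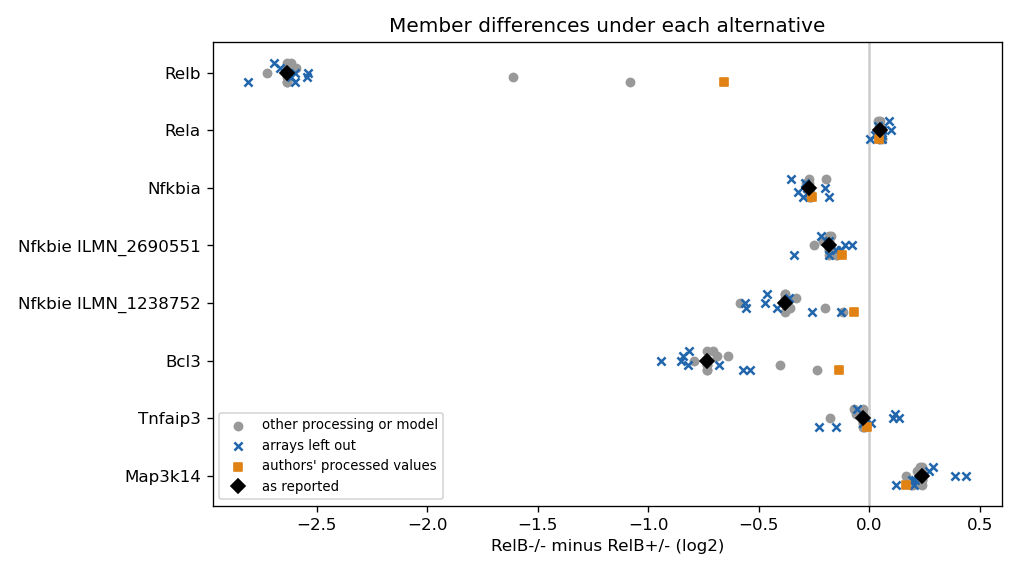
RelB-/- minus RelB+/- difference (horizontal axis, log2) of each tested probe as reported (diamond), with arrays left out (crosses), with the authors' processed values (squares) and under the other processing and model choices (circles). Relb lies between -2.81 and -0.66 and is called throughout, and the remaining probes are called in 0 of the alternatives, with Tnfaip3 on both sides of 0.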

How the data were processed

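Probe intensity values were used as deposited, on a linear scale and not normalized between arrays per the file headers, each with a detection p-value that the authors deposited beside it. Per the submitters' processing notes GenomeStudio was used, with version and export settings not given in the sources used here. The authors' deposited processed table holds log2 values (median 7.65 on each array) whose making is not given in the sources used here, and it served as an alternative. Signals were corrected by normexp with the detection p-values (offset 16), quantile normalized and log2 transformed (limma 3.58.1, R 4.3.3). Probes with detection p under 0.05 on 3 or more arrays (12465) entered 1 limma model (lmFit, eBayes, 2-sided), tested beforehand on simulated data. Symbols came from the platform annotation, updated by gene identifier. The design named all probes of the 10 genes, all called genes of each pathway list or otherwise the 2 with the smallest p, called neighbours of Relb, and the 5 genes most like Relb, and exceptions are marked. Members and lists were chosen with earlier results of these data known. Numbers in sample titles were not used to pair the arrays. Deviations from the group means of same-numbered arrays correlated at 0.30, -0.16 and -0.19. So few arrays cannot exclude a pairing. No per-sample column was left unused. All 7 arrays lay on 1 chip per the labels. The number of arrays limits the precision. Figures used matplotlib 3.10.9.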

Additional observations from a re-analysis of the deposited data

Results flagged for a closer look

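Of 27 probes examined, 2 had a RelB+/- array far from the other RelB+/- arrays, and chance gives about 1 in 20. Junb read 9.87 on RelB+/- 4, and Gipc2 read 6.19 on RelB+/- 2. Both values lie on the side away from the RelB-/- arrays.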

How the results depend on the processing

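The Relb call held in all 20 alternatives in which Relb was tested, with differences from -2.81 to -0.66. Of the 7 other NF-kB probes that passed the filter, 0 were called in the alternatives in which each was tested (22 for most, 21 for Bcl3 and 19 for the dimmer Nfkbie probe), while Rel and Nfkb2 were tested only without the filter. The count over all probes, 61 lower and 8 higher, depended more on the setting, and the causes were not tested. It was 40 lower without background correction, 23 lower and 2 higher with the authors' processed values, and 12 lower and 3 higher among 9833 probes detected on all 7 arrays. There were 15 higher without normalization between arrays, 4 higher with cyclic loess, 5 higher without a filter and 81 lower and 16 higher at an adjusted p under 0.1. The most lower were 85, with the chip position covariate, and the intensity trend gave 74. With the replicate block, for title numbers not known to pair the arrays, 19 were lower and 1 higher. Relb was then -2.62 (adjusted p = 0.018), and the call of Junb was lost (adjusted p = 0.209). Leaving out single arrays gave 29 to 61 lower and 3 to 7 higher, with the fewest lower without RelB+/- 1 (29), RelB-/- 1 (31) and RelB+/- 2 (39). Without both arrays with heart muscle transcripts, chosen after seeing the data, 17 were lower and 1 higher. Alternatives were not run for Rel and Nfkb2 beyond the filter, nor for Clasrp and Clptm1. Of the other probes named, Tnfaip3 changed sign, with -0.23 to 0.13 when single arrays were left out. It was 0.0084 without RelB-/- 2, 0.13 without RelB-/- 3, 0.12 without RelB+/- 1 and 0.11 without both heart muscle arrays, and never with a call. No scaling moved the median of all probes by over 0.1. Rel, Nfkb2 and the dimmer Nfkbie probe lay at the detection limit, where differences are compressed. The RelB-/- arrays of Bcl3 were also near that limit, with a mean of 4.99 and 2 of 3 detected.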
